A study of Mus musculus with 18 samples.

Results

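The mRNAs of the mitochondrial respiratory chain were followed in mouse retinas and in photoreceptor-like cells that expressed *nsHif1a*, a Myc-tagged mouse *Hif1a* whose protein is stable and active in normoxia. The genes were chosen by name. They are the protein-coding genes of the gencode annotation present in both count tables whose symbols start with *Nduf*, *Uqcr*, *Atp5* or *mt-*, or with *Cox4*, *Cox5*, *Cox6*, *Cox7* or *Cox8*, together with *Cyc1* and *Sdha*, *Sdhb*, *Sdhc* and *Sdhd*. The rule found 112 gene records among the 78239 genes of both tables, of which 21723 are protein-coding. Of the 112, 99 are nuclear and 13 are encoded by mitochondrial DNA (mtDNA). By complex, 45 belong to complex I, 4 to complex II, 10 to complex III, 24 to complex IV and 21 to complex V, and 8 are assembly factors of complex I. Another 44 genes carried a matching symbol but were transfer RNAs, ribosomal RNAs, pseudogenes or long noncoding RNAs and were left out.

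The retinas came from mice that received a subretinal injection of AAV::*nsHif1a* (5 libraries) or AAV::eGFP (5 libraries) between postnatal days 29 and 32 and were collected 3 weeks post injection (wpi). A rod-specific promoter drove both transgenes, so the whole retina was sequenced while the transgene was meant to be expressed in rods alone. The study also reports that the vectors transduced only a minor part of the retinal area. Retinal values therefore average over transduced and other tissue and are not effect sizes in transduced rods. The sample labels give the mice as C57BL/6J, whereas the study's methods describe another inbred background, and the labels' strain was not checked here. The cells were 661W, a mouse line that the study describes as retinoblastoma-derived and photoreceptor-like. They were collected 20 h after transfection with CMV-*nsHif1a* (4 libraries) or CMV-eGFP (4 libraries). Nothing in the labels says that the 4 libraries of a group are separate cultures, so *p*-values measure the spread between these libraries.

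Oxidative phosphorylation couples electron transfer through complexes I to IV to ATP synthesis by complex V. Complexes I, III, IV and V combine subunits from the nucleus with subunits from mtDNA, whereas complex II is nuclear only. Rods use much of their oxygen in the mitochondria of the inner segment. In hypoxia, HIF1 is known to shift cells toward glycolysis, to induce *Ndufa4l2*, a paralog of the complex IV subunit *Ndufa4*, and to exchange the complex IV subunit *Cox4i1* for *Cox4i2*. Whether this program reached the respiratory chain mRNAs of whole retinas with transduced rods and of 661W cells is the question that both comparisons address.

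The levels of several mtDNA genes depend on how reads were placed, because the nuclear genome of the mouse holds a copy of part of mtDNA. The copy of M:6408-9810 lies on the minus strand of chr1:24651849-24655251 (GRCm39) and differs from mtDNA at 1 of 3403 bases. The start of *mt-Co2* is shown because it cannot be told from its copy, and a stretch that runs into *mt-Nd3* is shown because it holds the only mismatch, in capitals. All sequences are written 5′ to 3′ along the strand of the gene.
mt-Co2 (M:7013-7092, plus strand): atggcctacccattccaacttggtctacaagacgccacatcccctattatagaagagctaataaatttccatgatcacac
copy of mt-Co2 (chr1:24654567-24654646, minus strand): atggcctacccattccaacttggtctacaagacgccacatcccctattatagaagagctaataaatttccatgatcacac
mt-Nd3 stretch (M:9421-9500, plus strand): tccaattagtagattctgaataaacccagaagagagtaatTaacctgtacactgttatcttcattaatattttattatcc
copy of the mt-Nd3 stretch (chr1:24652159-24652238, minus strand): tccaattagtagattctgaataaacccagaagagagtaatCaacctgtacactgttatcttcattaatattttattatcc

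Reads of these genes were divided between mtDNA and the copy. For *mt-Co2*, 30.1% to 31.6% of the summed counts of gene and copy lay on the annotated pseudogene *Gm28661* in the AAV::eGFP retinas and 31.1% to 32.4% in the AAV::*nsHif1a* retinas. Beyond the ungapped stretch, the copies of *mt-Nd4l* and *mt-Nd4* lie next to it on chromosome 1. The medians for *mt-Co3* and *mt-Atp6* in the AAV::eGFP retinas were 30.7% and 35.1%, and those for *mt-Nd4l*, *mt-Nd4* and *mt-Co1* were 25.9%, 16.4% and 11.0%. The pseudogene of *mt-Nd3* held at most 2 counts together with the noncoding gene that overlaps it. Both lie on the same strand, so reads on this copy can be left unassigned. The low share does not show that these reads stayed on mtDNA. *mt-Atp8* lies in the copied stretch but had no annotated copy to count. *mt-Nd1*, *mt-Cytb* and *mt-Nd6* share no run of 50 bases with any other place of the genome. Levels of the copied genes are therefore understated, while their shares on the copy were close in both groups of each experiment. No mtDNA gene gained or lost its call when the counts of the copies were added. The addition gave *mt-Atp8* no counts and *mt-Nd3* at most 2 in a library, so it could not test these genes. Several nuclear members are divided in the same way. More than 50% of the median summed counts lay on pseudogenes or paralogs for *Atp5mc1*, *Atp5mc2*, *Atp5mg*, *Atp5pd*, *Cox7c*, *Ndufa12*, *Ndufab1*, *Ndufb4*, *Ndufs5* and *Atp5mk* in each group, and levels of these members are uncertain.

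**Figure D1:**
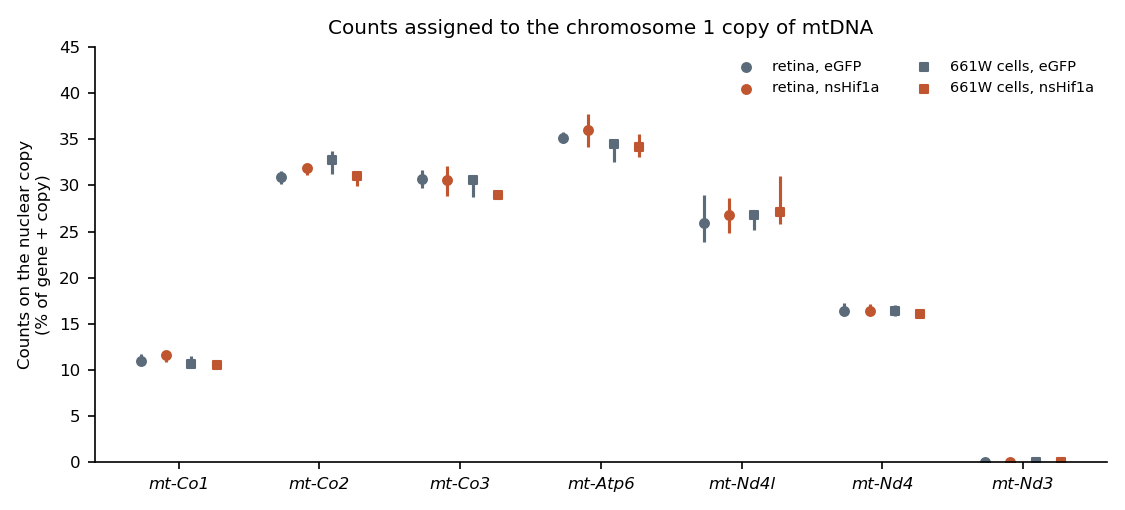
Percentage of the summed counts of an mtDNA gene and its chromosome 1 copy that were assigned to the copy, as the median (points) and the lowest and highest library (lines) in each group. The share ranges from near 0 for *mt-Nd3* to about 35.1% for *mt-Atp6* (AAV::eGFP retinas). Genes that overlap each other are annotated on the copy of *mt-Nd3*, so its value does not show that its reads stayed on mtDNA.

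The library totals ranged from 12898220 to 17809585 counts. Levels are given as CPM (counts relative to the library total, scaled by TMM), and 3 counts in a library, the floor used here, corresponded to between 0.168 and 0.233 CPM, which covers counting error only. *Hif1a* itself had 668 ± 26.1 CPM (SD, n = 5) in AAV::eGFP retinas and 687 ± 31.6 CPM (SD, n = 5) in AAV::*nsHif1a* retinas (log2FC 0.05, limma adjusted *p* = 0.50), so the retinal labels are not checked by this gene. In 661W cells it rose from 157 ± 6.79 to 1561 ± 384 CPM (SD, n = 4 each; log2FC 3.26, limma adjusted *p* = 1.18e-05). The groups of retinas differed in more than the vector. *Xist*, which is transcribed from inactive X chromosomes, was nearly absent from replicates 3 to 5 of AAV::eGFP with 1 to 3 counts, compared with 19492 to 28595 counts in replicates 1 and 2 of that group and in every AAV::*nsHif1a* library. The summed level of 6 γ-crystallin genes of the lens ranged from 634 to 2816 CPM in controls and from 920 to 18956 CPM after AAV::*nsHif1a*, and none of the 6 passed the test. In 661W cells, squared differences were set against the variance expected from counting noise, as a median over genes. Between replicates 1 and 2 and replicates 3 and 4 of a group they were 3.83 to 9.12 times that variance. Between the 2 libraries within such a pair they were 1.48 to 1.62 times.

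Few members changed in the retina. At an adjusted *p* under 0.05 (limma, Benjamini-Hochberg over 18859 genes), 2 of 107 tested members differed between AAV::*nsHif1a* and AAV::eGFP, *Cox4i2* upward and *Ndufa10* downward, which is 1.87% of the members against 5.79% of all genes tested. *Cox4i2* also exceeded a log2FC of 0.5, as did 1.08% of all genes upward and 0.912% downward. At an unadjusted *p* under 0.05, there were 18 members (14 higher and 4 lower), or 16.8% of those tested against 21.7% of all genes. The median log2FC was 0.05 for the 94 nuclear members tested and -0.06 for the 13 mtDNA members, against -0.00 for all genes. With the *Xist* class as a covariate the nuclear median was 0.01. Groups did not overlap for 2 members that were higher (*Cox4i2* and *Uqcr11*; 3.25% of all genes) and 1 that was lower (*Ndufa10*; 2.69% of all genes).

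**Figure D2:**
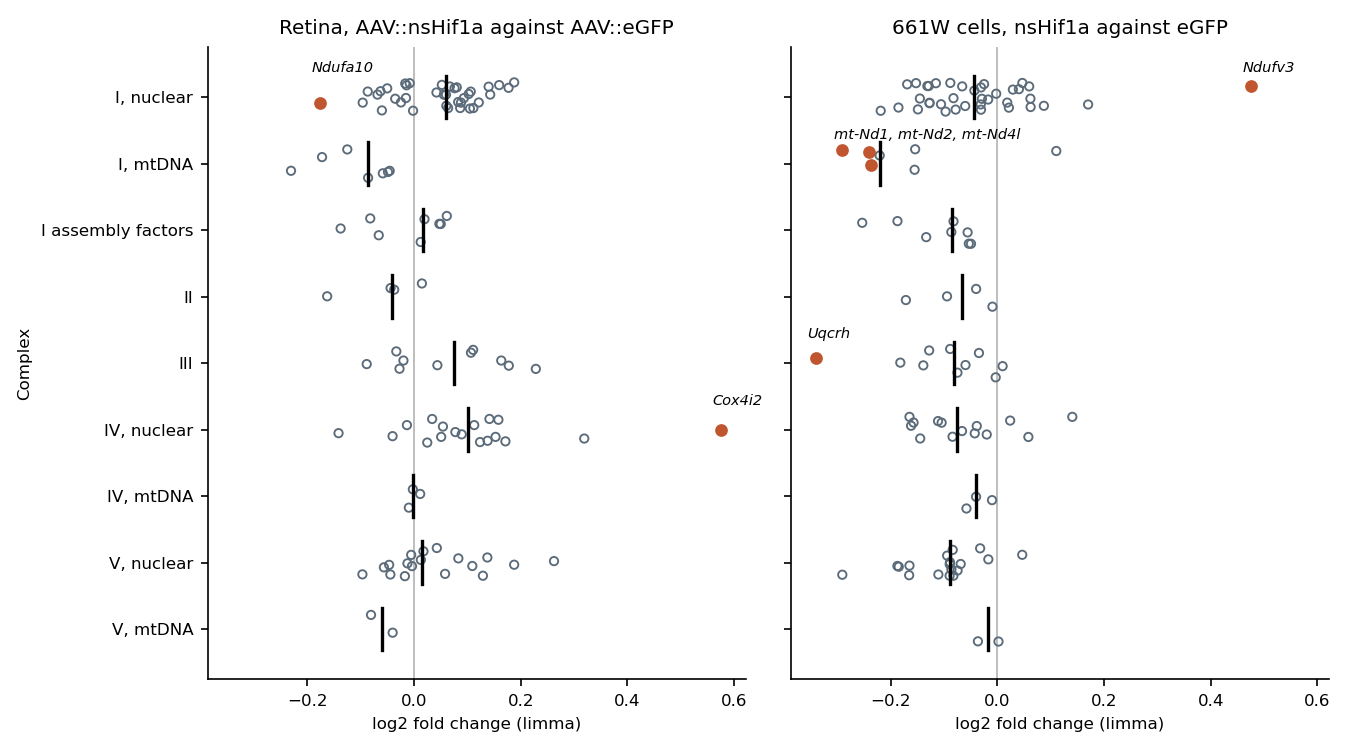
Log2 fold change of each tested member in retinas (left) and 661W cells (right), one point per gene, by complex and genome; filled points have an adjusted *p* under 0.05 and vertical bars mark medians. In retinas only *Cox4i2* and *Ndufa10* are filled, and in cells most points lie below 0.

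The complex IV isoform *Cox4i2* (ENSMUSG00000009876.14, plus strand of chr2:152595625-152606959, GRCm39) was the one member called in the retina. Its level was 18.2, 21.5, 17.9, 13.8 and 14.4 CPM in the AAV::eGFP libraries 1 to 5. It was 22.4, 26.5, 24.5, 24.7 and 23.99 CPM in the AAV::*nsHif1a* libraries 1 to 5. Every AAV::*nsHif1a* library lay above every AAV::eGFP library, with library 2 the highest in both groups. The mean rose from 17.2 ± 3.15 to 24.4 ± 1.45 CPM (SD, n = 5 each), a log2FC of 0.58 (SE 0.11, 95% interval 0.35 to 0.80, limma adjusted *p* = 0.0080). The *Xist* classes moved with this result. AAV::eGFP libraries 1 and 2, which carry *Xist* counts like all AAV::*nsHif1a* libraries, were the 2 highest of their group. With the *Xist* class as a covariate the log2FC was 0.31 (limma adjusted *p* = 0.15), and in the libraries with *Xist* counts alone (2 against 5) it was 0.31 (limma adjusted *p* = 0.15), so the call was lost in both. With the γ-crystallin mean as a covariate the log2FC was 0.63 (limma adjusted *p* = 0.029).

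The partner isoform *Cox4i1*, the common form of the subunit, had 178, 176, 163, 154 and 173 CPM with AAV::eGFP. It had 185, 173, 183, 196 and 164 CPM with AAV::*nsHif1a*. The groups overlapped (log2FC 0.09, SE 0.05, limma adjusted *p* = 0.35). Per kilobase of exon, *Cox4i2* made up 15.9% ± 2.06 of the summed *Cox4i1* and *Cox4i2* counts with AAV::eGFP (SD, n = 5) and 20.3% ± 1.58 with AAV::*nsHif1a* (SD, n = 5). The shares ranged from 13.5% to 18.6% and from 18.5% to 22.2%, so the highest AAV::eGFP library passed the lowest AAV::*nsHif1a* library. They rest on merged exon lengths of 2511 bases for *Cox4i1* and 1341 for *Cox4i2*. By raw counts the mean shares were 9.20% and 11.97%. *Cox4i2* is known from pericytes as well, and 8 markers of pericytes and smooth muscle were read beside it. Their summed level was between 647 and 692 CPM in controls and between 556 and 639 CPM after AAV::*nsHif1a*. Most of it was *Vtn*, so the sum follows that gene and does not measure these cells. Of the 7 tested markers 4 had a log2FC above 0 (median 0.15). Only *Vtn* passed, and it fell by 0.31 on the log2 scale (limma adjusted *p* = 0.0031). *Rgs5* had a log2FC of 0.26 (adjusted *p* = 0.23), *Kcnj8* 0.78 (adjusted *p* = 0.15) and *Pdgfrb* -0.13 (adjusted *p* = 0.54) in limma. Of 5 endothelial markers *Kdr* passed (log2FC 0.26, limma adjusted *p* = 0.049), and the part of these cells in the *Cox4i2* result was not tested. Over the 10 retinal libraries the genes whose log2 CPM followed *Cox4i2* most closely were *Gstt1*, *Src* and *Cav1*, with Pearson correlations of 0.98, 0.96 and 0.96, as a description over libraries that share both groups.

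The HIF-inducible paralog *Ndufa4l2* (ENSMUSG00000040280.11, plus strand of chr10:127350818-127353038, GRCm39) was low in the retina. It had 2.52, 2.39, 0.866, 1.78 and 2.33 CPM with AAV::eGFP. It had 1.72, 2.33, 2.20, 1.57 and 2.24 CPM with AAV::*nsHif1a*. The values of both groups lay in the same range, apart from the lower AAV::eGFP library 3. The log2FC was 0.11 (SE 0.26, limma adjusted *p* = 0.85), with a 95% interval from -0.46 to 0.69. A change of up to 0.69 on the log2 scale in the whole retina was thus not excluded at this depth. The interval does not bound the change within transduced rods. *Ndufa4*, the constitutive form, had 162 ± 16.7 and 165 ± 16.9 CPM (SD, n = 5 each; log2FC 0.05, limma adjusted *p* = 0.74). The share of *Ndufa4l2* in the summed counts of both per kilobase of exon was 9.14% ± 3.14 with AAV::eGFP and 9.15% ± 2.01 with AAV::*nsHif1a* (SD, n = 5 each). This share depends on the merged length of all annotated exons, 7895 bases for *Ndufa4* and 967 for *Ndufa4l2*. By raw counts it was 1.23% and 1.22%, so the level of the share is uncertain. The genes nearest to *Ndufa4l2* over the 10 libraries were *Zfp423*, *Ltbp3* and *Rcn1*, with Pearson correlations of 0.92, 0.92 and 0.91.

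**Figure D3:**
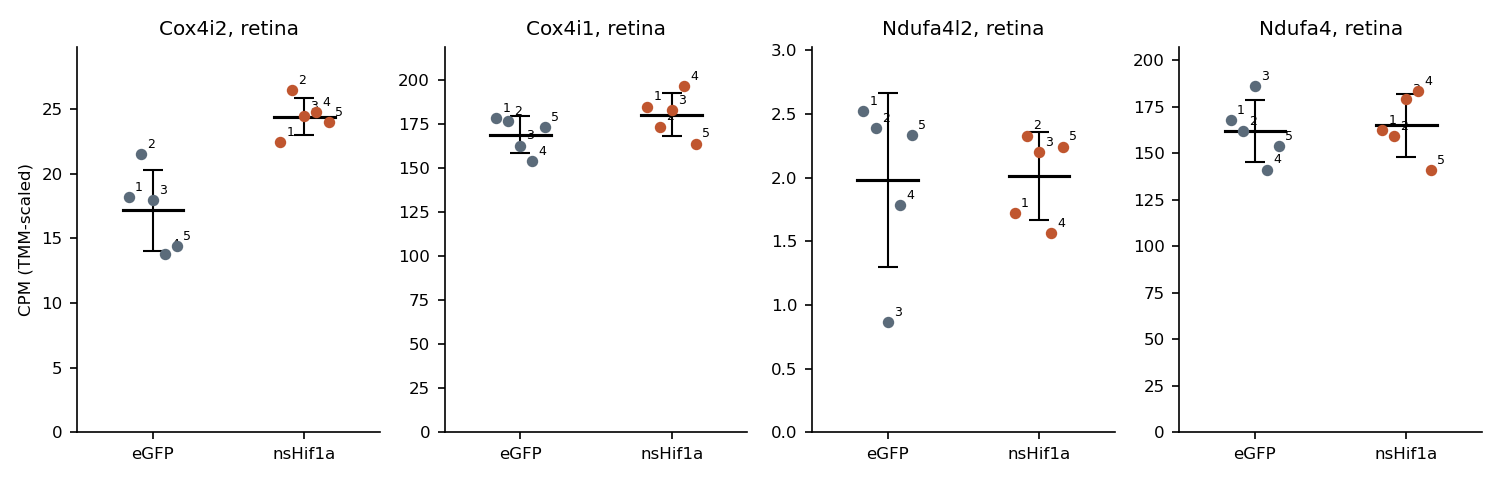
TMM-scaled CPM of *Cox4i2*, *Cox4i1*, *Ndufa4l2* and *Ndufa4* in the 10 retinal libraries, numbered by replicate, with the mean and SD of each group (n = 5). The AAV::*nsHif1a* libraries sit between 22.4 and 26.5 CPM for *Cox4i2*, above all AAV::eGFP libraries, and the groups overlap in the other panels.

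Among complex I subunits in the retina, *Ndufa10*, an accessory subunit of the membrane arm, was the only member that passed. It had 100.9, 89.9, 89.0, 96.7 and 93.5 CPM with AAV::eGFP. It had 88.8, 84.0, 82.1, 80.7 and 81.5 CPM with AAV::*nsHif1a*. The groups did not overlap, although the highest AAV::*nsHif1a* library was close to the lowest AAV::eGFP library. The log2FC was -0.18 (SE 0.04, limma adjusted *p* = 0.034), and leaving out 1 library at a time kept the value between -0.20 and -0.16 while the call held in 3 of 10 such fits. The *Xist* class covariate gave -0.19 (limma adjusted *p* = 0.11). The 7 nuclear core subunits, which carry the redox centres, had a median log2FC of -0.02 and the 30 tested accessory subunits of complex I one of 0.07. The highest of the nuclear subunits of complex I was *Ndufa11*, another accessory subunit (log2FC 0.19, limma adjusted *p* = 0.18). None of the 8 complex I assembly factors passed, and their log2FC ranged from -0.14 (*Ndufaf2*) to 0.06 (*Ndufaf7*).

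In complexes II, III and V of the retina no member passed. *Sdhc*, a membrane anchor of succinate dehydrogenase, had the lowest log2FC of complex II (-0.16, limma adjusted *p* = 0.13) and *Sdhd*, the other anchor, the highest (0.01). In complex III, *Uqcrb* had the highest value (0.23, limma adjusted *p* = 0.11) and the core protein *Uqcrc1* the lowest of the nuclear subunits (-0.03). *Atp5if1*, which encodes the inhibitor of ATP hydrolysis by complex V, was just outside the threshold. Its level was 58.4, 49.6, 50.9, 45.7 and 45.3 CPM with AAV::eGFP and 61.6, 57.9, 62.5, 60.1 and 52.5 CPM with AAV::*nsHif1a*. AAV::eGFP library 1 lay above AAV::*nsHif1a* libraries 2 and 5, and the other AAV::eGFP libraries lay below the whole other group (log2FC 0.26, SE 0.07, limma adjusted *p* = 0.05004). With the *Xist* class as a covariate the log2FC of *Atp5if1* was 0.14 (limma adjusted *p* = 0.38). *Atp5me*, a subunit of the membrane sector, had the lowest value of complex V (-0.10, limma adjusted *p* = 0.40).

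Tissue isoforms of complex IV other than *Cox4i2* were mostly low in the retina. *Cox6b2*, an isoform best known from testis, had 3.82, 2.97, 4.83, 5.35 and 5.42 CPM with AAV::eGFP and 6.67, 5.10, 5.89, 5.11 and 5.84 CPM with AAV::*nsHif1a*. The groups overlapped, with AAV::eGFP libraries 1 and 2 the lowest (log2FC 0.32, limma adjusted *p* = 0.28). With the *Xist* class as a covariate its log2FC was 0.74 (limma adjusted *p* = 0.038), the one member that passed in that fit. The heart and muscle isoforms *Cox7a1* and *Cox8b* reached at most 2.14 and 6.37 CPM in any retinal library, and *Cox6a2* at most 0.711 CPM. *Cox7b2* had at most 2 counts and *Cox8c* none. The common forms *Cox6a1*, *Cox6b1*, *Cox7a2* and *Cox8a* had a log2FC between 0.03 and 0.14 and did not pass. The X-linked members *Ndufa1*, *Ndufb11* and *Cox7b*, read because of the *Xist* difference, had 0.14, 0.08 and 0.15 (limma adjusted *p* = 0.28, 0.48 and 0.21).

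Per length, 12 of the 13 mtDNA mRNAs were the most abundant members, the exception being *mt-Nd6*. In AAV::eGFP retinas *mt-Co1* had 6920 CPM per kilobase of exon, *mt-Co2* 5469 and *mt-Atp6* 5429, whereas the highest nuclear member, *Atp5f1b*, the catalytic β subunit of complex V, had 305. The 13 mtDNA mRNAs took between 3.62% and 4.83% of all counts in controls and between 3.70% and 4.19% after AAV::*nsHif1a*, and these ranges overlap. With the counts on the chromosome 1 copy added, the ranges were 4.27% to 5.69% and 4.37% to 4.99%. None of the 13 passed in the retina. Their log2FC lay between -0.23 and 0.01, 12 were below 0, the median of the 7 complex I genes was -0.09 and that of the 3 complex IV genes -0.00. The lowest was *mt-Nd4l*, a membrane subunit of complex I (log2FC -0.23, SE 0.08, limma adjusted *p* = 0.13), which passed in DESeq2 alone (log2FC -0.28, adjusted *p* = 0.017). Its AAV::eGFP libraries had 427, 407, 535, 465 and 371 CPM and its AAV::*nsHif1a* libraries 338, 361, 391, 375 and 354 CPM, so library 5 of AAV::eGFP lay among the other group.

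**Figure D4:**
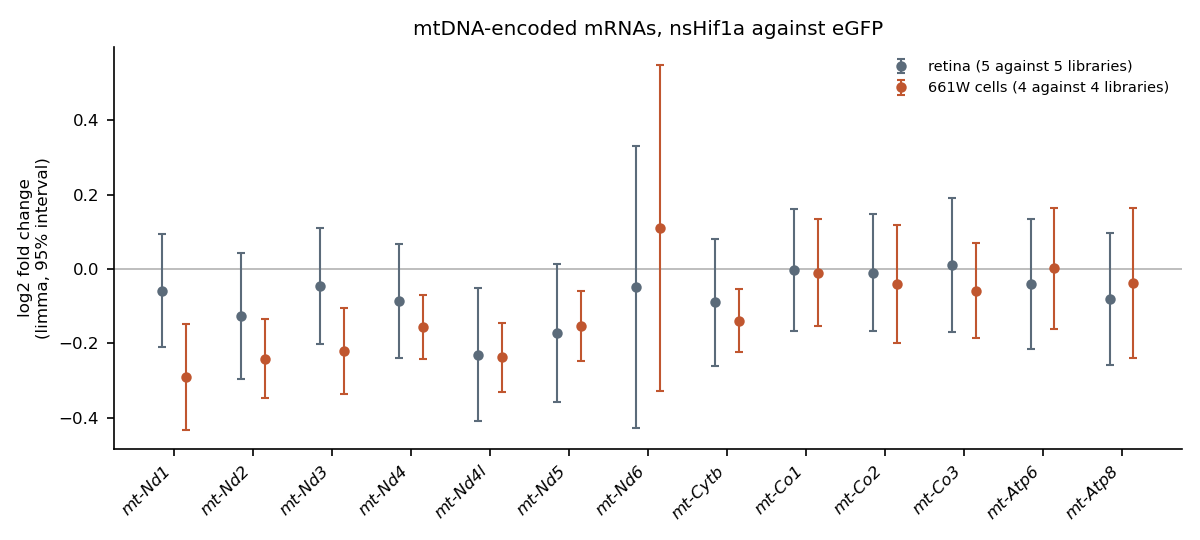
Log2 fold change (points) with 95% intervals (bars) of the 13 mtDNA mRNAs in retinas and 661W cells. In 661W cells *mt-Nd1* to *mt-Nd5* and *mt-Cytb* have intervals below 0, while those of the *mt-Co* and *mt-Atp* genes include 0.

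In 661W cells most members, nuclear and mtDNA alike, had a log2FC below 0. Of 103 tested members 5 passed at an adjusted *p* under 0.05 (4.85%, against 2.49% of all 15962 genes). They were *Ndufv3*, which rose, and *Uqcrh*, *mt-Nd1*, *mt-Nd2* and *mt-Nd4l*, which fell (3.88% of members lower, against 0.426% of all genes). No member exceeded a log2FC of 0.5 together with the threshold, nor in edgeR or DESeq2, whereas 1.21% of all genes did upward and 0.0626% downward. At an unadjusted *p* under 0.05 there were 27 members, 26 of them lower, or 26.2% of those tested against 20.7% of all genes. The median log2FC was -0.08 over the 90 nuclear members tested and -0.14 over the 13 mtDNA members, against -0.00 over all genes, and 85 of 103 members lay below 0. Groups did not overlap for 26 members that were lower (25.2%, against 6.11% of all genes) and for 1 that was higher (7.51% of all genes). Whether the replicate numbers pair the libraries of the cells was not established. With the replicate as a block 2 members passed, *Ndufv3* and *mt-Nd1*, among 124 of all 15962 genes. The number that passed depended on the libraries. It was 25 (22 lower) without *nsHif1a* replicate 3 or without replicate 4, where 5043 of 16171 and 5043 of 16166 genes passed. It was 8 without *nsHif1a* replicate 1 or 2, with 557 of 16123 and 585 of 16268 genes. Without eGFP replicate 1 it was 1 (124 of 16312 genes) and without eGFP replicate 2 it was 2 (130 of 16297 genes). With the pairs of replicates as a covariate 16 passed (15 lower), against 1955 of 15962 genes. When the counts of replicates 1 and 2 and of replicates 3 and 4 were summed (2 against 2), no member or other gene passed. There 7 members had an unadjusted *p* under 0.05, against 920 of 18117 genes. All these fits tested 103 members, or 104 with the summed counts.

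*Ndufv3*, an accessory subunit of the matrix arm of complex I with a short and a long isoform, showed the largest change of any member in the cells. Its level was 35.3, 37.4, 35.7 and 36.3 CPM in the eGFP libraries 1 to 4. It was 49.1, 54.5, 48.2 and 49.1 CPM in the *nsHif1a* libraries. All *nsHif1a* libraries lay above all eGFP libraries, with replicate 2 the highest in both groups. The mean rose from 36.2 ± 0.911 to 50.2 ± 2.85 CPM (SD, n = 4 each), a log2FC of 0.48 (SE 0.05, 95% interval 0.36 to 0.59, limma adjusted *p* = 0.0024). The log2FC was 0.50 within replicates 1 and 2 and 0.44 within replicates 3 and 4.

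*Uqcrh*, the hinge protein of complex III, fell. It had 78.6, 81.7, 73.9 and 74.3 CPM in the eGFP libraries. It had 59.8, 59.2, 59.5 and 64.7 CPM in the *nsHif1a* libraries, all below the eGFP libraries. The log2FC was -0.34 (SE 0.05, limma adjusted *p* = 0.015), and with the replicate block it was -0.33 (adjusted *p* = 0.065). Without eGFP replicate 1 the log2FC was -0.31 (limma adjusted *p* = 0.053).

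The 250 bases upstream of the start sites of *Ndufv3* and *Uqcrh* are printed because these members changed in opposite directions in the cells. They come from RefSeq and GRCm38.p6, a different build from the count tables, and the letters ACGTG and GCGTG, the core of the hypoxia response element, are in capitals on either strand (CACGT and CACGC on the other strand).
Ndufv3 (chr17:31519865-31520114, plus strand): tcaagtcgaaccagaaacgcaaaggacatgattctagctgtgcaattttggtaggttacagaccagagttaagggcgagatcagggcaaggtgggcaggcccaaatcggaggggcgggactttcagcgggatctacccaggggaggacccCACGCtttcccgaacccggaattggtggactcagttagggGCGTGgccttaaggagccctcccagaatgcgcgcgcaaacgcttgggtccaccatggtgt
Uqcrh (chr4:116075071-116075320, minus strand): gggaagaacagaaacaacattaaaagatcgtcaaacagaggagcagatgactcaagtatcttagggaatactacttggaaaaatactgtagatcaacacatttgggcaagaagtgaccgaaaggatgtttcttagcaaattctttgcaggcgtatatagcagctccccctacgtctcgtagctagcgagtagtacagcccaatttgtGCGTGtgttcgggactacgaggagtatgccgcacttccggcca

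*Ndufv3* held 2 matches to GCGTG and *Uqcrh* 1, and neither held ACGTG. Over the 65 windows found for 63 nuclear members, 46.2% held GCGTG and 18.5% held ACGTG, compared with 28.2% and 16.6% of all 32851 windows in the RefSeq table. These matches describe letters and not binding.

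Among the mtDNA genes of 661W cells, those that passed all encode subunits of complex I. *mt-Nd1*, a core subunit of complex I, had 1679, 1724, 1490 and 1535 CPM in the eGFP libraries. It had 1338, 1379, 1307 and 1208 CPM in the *nsHif1a* libraries. Every *nsHif1a* library was below every eGFP library, and replicates 1 and 2 were the higher ones with eGFP (log2FC -0.29, SE 0.06, limma adjusted *p* = 0.0495; with the replicate block -0.30, adjusted *p* = 0.044). *mt-Nd2*, another core subunit, had 1197, 1184, 1103 and 1128 CPM with eGFP and 972, 1029, 966 and 924 CPM with *nsHif1a* (log2FC -0.24, SE 0.05, limma adjusted *p* = 0.036). *mt-Nd4l* had 194, 203, 195 and 196 CPM with eGFP and 157, 173, 170 and 169 CPM with *nsHif1a* (log2FC -0.24, SE 0.04, limma adjusted *p* = 0.023). Neither gene overlapped between groups, and with the replicate block their adjusted *p* in limma was 0.057 and 0.059. Both calls were also lost without eGFP replicate 1 (limma adjusted *p* = 0.089 and 0.058) and without eGFP replicate 2 (0.096 and 0.057), as was that of *mt-Nd1* (0.12 and 0.11).

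*mt-Nd3*, *mt-Nd4*, *mt-Nd5* and *mt-Cytb*, the cytochrome b of complex III, had a log2FC of -0.22, -0.16, -0.15 and -0.14 (limma adjusted *p* = 0.059, 0.066, 0.083 and 0.083), and none of them overlapped between groups. These 4 passed with the pairs of replicates as a covariate and in DESeq2. By contrast, the 3 complex IV genes *mt-Co1*, *mt-Co2* and *mt-Co3* had -0.01, -0.04 and -0.06, and the complex V genes *mt-Atp6* and *mt-Atp8* had 0.00 and -0.04. For *mt-Co1* the eGFP libraries had 7468, 7478, 6762 and 6924 CPM and the *nsHif1a* libraries 7552, 7622, 6574 and 6541 CPM. Replicates 1 and 2 were above replicates 3 and 4 in both groups, and the groups overlapped. Within replicates 1 and 2 the median log2FC was -0.25 for the 7 complex I genes, of which 6 passed, and -0.02 for the complex IV genes, of which 0 passed. Within replicates 3 and 4 it was -0.19 and -0.07, and there 6 of the complex I genes and all 3 complex IV genes passed in limma. Both fits set 2 libraries against 2 whose squared differences were 1.48 to 1.62 times counting noise. Passing there measures little beyond that noise. Of all genes, 5912 of 16122 passed within replicates 1 and 2 and 974 of 16211 within replicates 3 and 4. With the pairs summed none passed. Whether the complex I and complex IV genes differed from each other was not tested. *mt-Nd6*, the only mRNA on the other strand of mtDNA, was low (21.6 to 40.7 CPM) and had a log2FC of 0.11 (SE 0.19). The whole mtDNA share of counts was 2.02% to 2.24% with eGFP and 1.86% to 2.10% with *nsHif1a*.

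Other nuclear members of the cells moved by small amounts. *Uqcrc1* had 155 ± 1.65 CPM with eGFP and 138 ± 6.94 CPM with *nsHif1a* (SD, n = 4 each; log2FC -0.18, limma adjusted *p* = 0.061), and the groups did not overlap. *Cox6b1*, a subunit of the complex IV dimer, had -0.16 (limma adjusted *p* = 0.064). *Atp5mj* had the lowest value of complex V (-0.29, limma adjusted *p* = 0.12) and *Atp5mc2*, a gene of the c ring subunit whose reads are divided with pseudogenes, the highest (0.05, limma adjusted *p* = 0.61). *Ndufaf4*, an assembly factor, had -0.25 (limma adjusted *p* = 0.068), and all 8 assembly factors were below 0. In complex II, *Sdhd* had the lowest log2FC (-0.17, limma adjusted *p* = 0.17) and *Sdha*, the flavoprotein, the highest (-0.01). *Cox4i2* and *Ndufa4l2* were not tested in the cells, since no library had more than 4 counts of *Cox4i2* or 2 of *Ndufa4l2*, near the floor of 3 counts. In the same libraries *Cox4i1* had 175 ± 6.76 and 170 ± 2.02 CPM and *Ndufa4* 134 ± 2.31 and 136 ± 10.9 CPM (SD, n = 4 each; log2FC -0.04 and 0.02).

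The effect of *nsHif1a* in the retina minus that in the cells was tested with an interaction term over all 18 libraries. Of 108 members tested 4 differed (3.70%, against 2.33% of 20999 genes), 3 higher (1.08% of all genes) and 1 lower (1.25%). None exceeded 0.5 in size (0.419% of all genes upward and 0.819% downward). At an unadjusted *p* under 0.05 there were 24 members, 22 higher and 2 lower (22.2%, against 16.8% of all genes). The median difference was 0.11 over the members and -0.00 over all genes, and 81 of 108 members lay above 0. For *Ndufv3* the difference was -0.34 (SE 0.06, limma adjusted *p* = 0.011), with a log2FC of 0.12 in the retina, where it had 72.4, 76.2, 76.7, 82.3 and 73.8 CPM with AAV::eGFP and 81.5, 81.3, 85.2, 80.9 and 84.7 CPM with AAV::*nsHif1a*. For *Uqcrh* it was 0.50 (SE 0.10, limma adjusted *p* = 0.019), with a log2FC of 0.16 in the retina and overlapping groups of 87.9 to 108 and 96.0 to 122 CPM. *Atp5if1* differed by 0.44 (SE 0.11, limma adjusted *p* = 0.047), with 0.26 in the retina and -0.17 in the cells. *Atp5mk*, a small subunit involved in dimers of complex V, differed by 0.32 (SE 0.07, limma adjusted *p* = 0.032), with 0.14 in the retina and -0.19 in the cells. Adding the counts of the pseudogene *Gm14539*, which held a median of 56.0% of the summed counts in AAV::eGFP retinas, left *Atp5mk* with an adjusted *p* of 0.0503 in limma. With a covariate for the retinal *Xist* class, *Ndufv3* alone passed (-0.31, limma adjusted *p* = 0.042), while *Uqcrh* had 0.48 (0.057), *Atp5mk* 0.31 (0.090) and *Atp5if1* 0.32 (0.18). With the replicate pairs of the cells summed, no member passed, and the limma adjusted *p* was 0.27 for *Ndufv3* and 0.37 for *Uqcrh*. In that fit 13 of 108 members had an unadjusted *p* under 0.05, against 1962 of 21902 genes. Neither *mt-Nd1* (difference 0.25, limma adjusted *p* = 0.23) nor the other mtDNA genes differed between the experiments at this threshold. Retina and cells also differ in time, vector, dose and cell type, and these cannot be told apart.

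**Figure D5:**
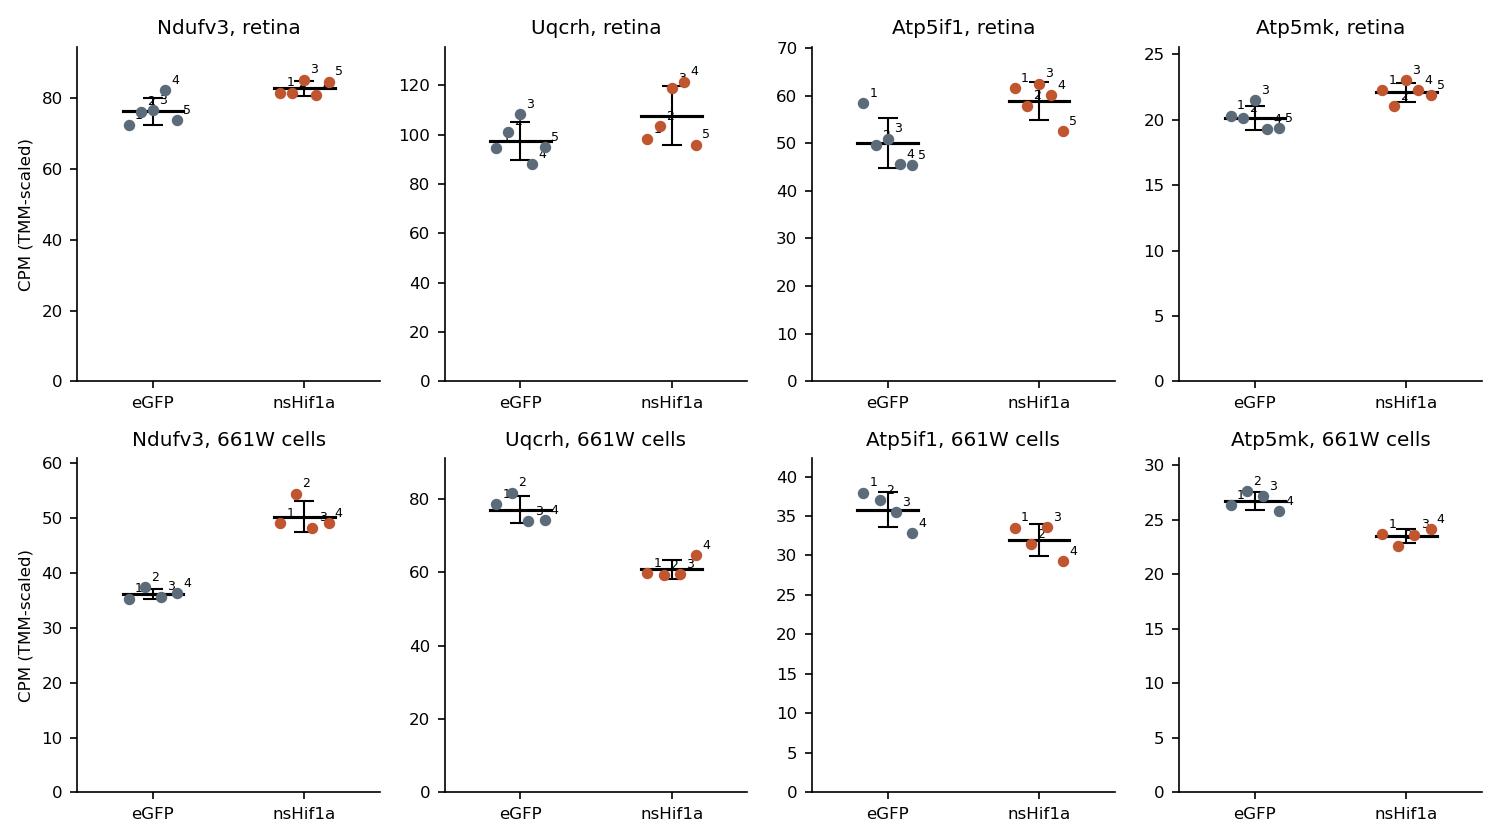
TMM-scaled CPM of *Ndufv3*, *Uqcrh*, *Atp5if1* and *Atp5mk* in retinal libraries (top, n = 5 per group) and 661W libraries (bottom, n = 4 per group), numbered by replicate, with mean and SD. *Ndufv3* rises from 36.2 to 50.2 CPM and *Uqcrh* falls from 77.1 to 60.8 CPM in 661W cells, while both overlap between groups in the retina.

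Baseline levels of many members differed between retinas and cells, but in smaller shares than among all genes. With the 18 libraries scaled together, 44 of 108 members with enough counts were higher in every AAV::eGFP retina than in every eGFP cell library (40.7%, against 48.3% of 20999 genes) and 30 were lower (27.8%, against 38% of all genes). *Cox4i2* had 17.7 CPM in retinas against 0.0850 CPM in cells, *Cox8a* 145 against 46.5 and *mt-Cytb* 5651 against 1810. *Sdhd* was the other way, with 41.6 against 95.8 CPM.

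Genes that act on the chain gave the setting for these values. Of 12 HIF targets of mitochondrial metabolism, 11 rose in the retina (3.31% of all genes rose) and 7 in the cells (2.06% of all genes). This list was chosen with earlier results of these data known, so the counts are a description. *Pdk1*, the kinase that closes the entry of pyruvate into the citric acid cycle, had a log2FC of 0.57 in the retina and 1.53 in the cells (limma adjusted *p* = 0.0026 and 0.00013). *Bnip3*, a receptor for mitophagy, had 0.98 and 1.85 (limma adjusted *p* = 0.00017 and 3.38e-05). *Higd1a*, which binds complex IV, rose in the retina (0.67, limma adjusted *p* = 0.00080) and had 0.55 in the cells (limma adjusted *p* = 0.054). *Lonp1*, the protease that degrades COX4I1, rose in the retina (0.30, limma adjusted *p* = 0.020) and had 0.31 in the cells (limma adjusted *p* = 0.12). *Mxi1*, an antagonist of MYC, rose in both (0.51 and 1.11, limma adjusted *p* = 0.0018 and 0.0061).

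Assembly factors outside the naming rule were read by complex. In the retina 4 of 40 passed, where 5.79% of all genes did: 1 of 6 complex III factors rose (*Uqcc2*, 0.24), 1 of 18 complex IV factors rose (*Cox20*, 0.30) and 1 fell (*Coa7*, -0.42), and 1 of 4 complex II factors fell (*Sdhaf3*, -0.34), with limma adjusted *p* = 0.023, 0.021, 0.039 and 0.039. None of 8 complex I factors and none of 4 ATP synthase factors passed there. In the cells, *Foxred1*, a complex I factor, rose (0.34, limma adjusted *p* = 0.040) and was the only one of 40 assembly factors to pass. None of 19 genes of mtDNA replication and expression, among them *Tfam* and *Polrmt*, passed in either experiment. Of 10 nuclear regulators, *Ppargc1b*, a coactivator of respiratory genes, fell in the retina (-0.45, limma adjusted *p* = 0.0039), while *Ppargc1a*, *Nrf1* and *Esrra* had -0.09, 0.12 and 0.09. Of 14 electron carriers and antiporters, *Slc25a5*, an ADP/ATP carrier, fell in the cells (-0.26, limma adjusted *p* = 0.048) and none passed in the retina.

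The composition of the retinal samples moved beside these values. All 10 rod markers had a log2FC below 0 in the retina, with a median of -0.21, and 4 passed, among them *Gnat1* (-0.31), *Sag* (-0.24) and *Pde6a* (-0.29), while 2.47% of all genes fell. Their summed level ranged from 49482 to 54650 CPM in controls and from 38757 to 51571 CPM after AAV::*nsHif1a*. In whole retina, fewer cells of a type and less RNA per cell cannot be told apart. Of 5 cone markers 1 fell (*Opn1mw*), of 5 Müller glia markers 1 rose (*Slc1a3*), of 5 bipolar markers 2 fell (*Cabp5* and *Prkca*), and none of the amacrine and ganglion, microglia and retinal pigment epithelium markers passed. All 5 microglia markers had a log2FC above 0 (median 0.69; summed level 20.9 to 85.7 CPM in controls and 33.7 to 80.8 CPM after AAV::*nsHif1a*), as had all 5 endothelial markers (median 0.28; 211 to 267 and 249 to 319 CPM). The summed level of the pigment epithelium markers lay between 20.3 and 651 CPM in controls and between 30.7 and 766 CPM after AAV::*nsHif1a*. The part of composition in the values of the members was not tested. In 661W cells only 3 of 10 rod markers had enough counts for a test, and the 10 together reached at most 18.5 CPM. Of 5 cone markers 1 had enough counts. Together the 5 had 0.901 to 1.82 CPM with eGFP and 1.41 to 1.69 CPM with *nsHif1a*. *Gnat1*, the α subunit of rod transducin, had 0.229 and 0.130 CPM with eGFP and *nsHif1a*, near the floor, whereas *Pde6a* had 9.29 and 8.14 CPM.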

How the data were processed

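RNA of 10 retinal libraries and 8 libraries of 661W cells was analysed, and samples were grouped by their labels. The authors made stranded mRNA libraries and aligned the read pairs with Rsubread to GRCm39. FeatureCounts, set to antisense reads, assigned them to genes of the M36 basic release of gencode. The deposited tables hold these raw counts, without filtering or normalization. A strand-specific count separates overlapping antisense genes, whereas reads of near-identical copies can be divided or lost. Starting from these counts, filterByExpr with a minimum count of 10 set which genes were tested, libraries were scaled by TMM in edgeR 4.0.16, and voomWithQualityWeights values were fitted in limma 3.58.1 (R 4.3.3) with Benjamini-Hochberg adjustment over all genes tested. Members were called at an adjusted *p*-value under 0.05, with and without an absolute log2FC above 0.5. The scripts were tested on simulated data.

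Coordinates and exon lengths came from gencode M39, which held 78168 of the genes, and shared runs of 50 bases from the GRCm39 genome. The exon length of a gene merges the exons of all its basic transcripts, so it can exceed that of any single mRNA. The members, marker and pathway lists and named genes were chosen with earlier results of these data known. Named genes were *Ndufa4l2*, *Cox4i2* and their counterparts, the mtDNA genes, members past the threshold, the highest and lowest nuclear member of each complex, X-linked members, tissue isoforms and listed genes; *Uqcr11*, *Uqcrc1* as a non-overlapping member, *Cox6b1* in the cells, *Atp5f1b* and members divided with copies were also named after their values were seen. Deviations of same-numbered libraries of the cells correlated at 0.238, 0.227, 0.259 and 0.269. A difference between replicates 1 and 2 and replicates 3 and 4 that both groups share would also give this. Pairing by replicate number was therefore not established. Alternatives were RLE scaling, mt- genes left out of the scaling, edgeR's quasi-likelihood test, DESeq2 1.42.0, no sample weights, no filter, a replicate block, the *Xist* class, the γ-crystallin mean, pairs of replicates and omission of each library. The *Xist*-only libraries, single replicate pairs, summed pairs, added copies and the *Xist* class and summed pairs in the difference were chosen after seeing the data.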

Additional observations from a re-analysis of the deposited data

Results flagged for a closer look

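For 4 members the effect of *nsHif1a* differed between retina and cells in the interaction test of limma, with differences (retina minus cells) of -0.34 for *Ndufv3*, 0.50 for *Uqcrh*, 0.44 for *Atp5if1* and 0.32 for *Atp5mk* on the log2 scale (adjusted *p* = 0.011, 0.019, 0.047 and 0.032).

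A library stood far from the others of its group, by the gap divided by the group's range, in 11 of 180 groups of the named members, and chance flags about 9 (1 in 20). In the retina these were *mt-Nd3* in AAV::eGFP library 3 (443 CPM, others 333 to 356), *Sdhd* in the same library (45.9 CPM, others 38.1 to 39.9), *Ndufaf8* in AAV::eGFP library 1 (9.93 CPM, others 8.36 to 8.54), *mt-Nd6* in AAV::*nsHif1a* library 1 (30.1 CPM, others 15.1 to 18.8) and *Uqcrb* in AAV::*nsHif1a* library 5 (36.8 CPM, others 43.3 to 45.1). In the cells they were *Ndufa10* in eGFP library 2 (86.7 CPM, others 82.2 to 82.7), *Ndufc1* in eGFP library 4 (16.3 CPM, others 14.6 to 14.8), *Cox7b* and *Atp5me* in eGFP library 3 (92.2 CPM, others 96.5 to 97.2, and 30.7 CPM, others 34.0 to 34.4), *Ndufv3* in *nsHif1a* library 2 (54.5 CPM, others 48.2 to 49.1) and *Uqcrh* in *nsHif1a* library 4 (64.7 CPM, others 59.2 to 59.8).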

How the results depend on the processing

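No named member that passed the threshold changed direction under any alternative. In the retina 2 members passed. The count was 4 with DESeq2. It was 1 without sample quality weights, without a filter, with the *Xist* class or with the γ-crystallin mean as a covariate. It was 0 in libraries with *Xist* counts only (14 at an unadjusted *p* under 0.05, against 3150 of 19926 genes). When 1 library was left out it was 1 to 3, and between 576 and 1353 genes passed. Of all 18859 genes, 1173 passed with DESeq2, 752 without sample weights, 422 with the *Xist* class and 498 with the γ-crystallin mean. Without a filter 709 of 42698 genes passed. The replicate numbers do not pair the retinal libraries (correlations from -0.148 to 0.138), and with the replicate block 1 passed (*Cox4i2*, log2FC 0.49), *Ndufa10* had a limma adjusted *p* of 0.11, so that 0 members were past both thresholds; this count was also 0 with the *Xist*-only libraries and 0 to 1 when 1 library was left out. In the cells 5 passed. The count was 14 with DESeq2, 9 without a filter, 2 with the replicate block and 16 with the pairs of replicates as a covariate. It was 40 within replicates 1 and 2, 16 within replicates 3 and 4, 0 with summed pairs and 1 to 25 when 1 library was left out. Past both thresholds it was 1 within replicates 1 and 2 and 0 to 1 when 1 library was left out. Over all genes, 1009 of 15962 passed with DESeq2 and 1955 of 15962 with the pairs as a covariate. Without a filter 355 of 35834 genes passed. Within replicates 1 and 2, 5912 of 16122 genes passed, and within replicates 3 and 4, 974 of 16211. Between 124 and 5043 genes passed when 1 library was left out. For the difference between experiments 4 passed, with 10 in DESeq2, 2 without a filter, 4 with the replicate block of the cells and 2 to 16 when 1 library was left out. It was 1 with a covariate for the retinal *Xist* class and 0 with summed pairs of the cells. Over all genes, 1066 of 20999 passed with DESeq2, 227 of 20999 with that covariate and 13 of 21902 with summed pairs. When 1 library was left out, between 248 of 20894 and 3113 of 21452 genes passed. The 16 members, of 108 tested, belong to the fit with 3113 genes. Of 28 alternatives, *Ndufv3* kept this call in 27, *Uqcrh* in 26, *Atp5mk* in 18 and *Atp5if1* in 14. The replicate block changed no other call of a named member in the difference. As a share of raw counts in place of counts per kilobase, *Cox4i2* was 9.20% and 11.97% and *Ndufa4l2* 1.23% and 1.22% of their pairs in AAV::eGFP and AAV::*nsHif1a* retinas. The cause of these shifts was not tested. Depth limits *Ndufa4l2*, *Cox7a1* and *Cox6a2*, the members with few counts.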
